A study of Mus musculus with 9 samples.

Results

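Genes that make, break down and respond to cyclic AMP (cAMP) were examined in islets of βRapKO mice (KO), whose beta cells lack *Raptor*, and of their control littermates (WT). Members were chosen by gene symbol. They were the adenylyl cyclases (Adcy), the phosphodiesterases (Pde), the regulatory and catalytic subunits of protein kinase A (Prkar and Prkac), the A-kinase anchoring proteins (Akap) and the Rap guanine nucleotide exchange factors (Rapgef). Of the 18193 genes with a probe set of their own, 62 carried such a symbol. A filter removed the dimmest 0.25 of genes, and 52 of these 62 were then tested among 13644 genes. KO mice were Raptor flox/flox with a RIP-Cre transgene, in which Cre follows the rat insulin promoter, and WT mice were Raptor flox/flox without Cre. Both groups thus carried the floxed alleles, and a Cre-only group was not analysed here. All animals were males aged 8 weeks, labelled as C57BL/6, and the Cre line had a mixed background. Whole islets were assayed on Affymetrix Mouse Genome 430 2.0 arrays, 4 for KO and 5 for WT, and each array held islet RNA pooled from 5 animals. The comparison asked which of these genes differ once beta cells lose mTORC1.

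cAMP is made from ATP by adenylyl cyclases under the control of stimulatory and inhibitory G proteins, and it is cleared by phosphodiesterases. In islets it amplifies glucose-stimulated insulin secretion downstream of the receptors for GLP-1, GIP and glucagon. It acts through protein kinase A (PKA), which anchoring proteins hold at particular sites in the cell, and through the exchange factor EPAC, which activates the small G protein Rap near secretory granules. Several phosphodiesterases also cleave cyclic GMP (cGMP), and some cleave only cGMP.

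Values below are log2 signals per array, differences are KO minus WT in log2 units with their SE, and adjusted p-values come from limma with Benjamini-Hochberg adjustment over the 13644 genes. A gene is called, and is said to have risen or fallen, where the adjusted p is under 0.05. The brightest probe set stands for a gene. Signals of different probe sets cannot be compared as transcript levels. In whole islets, fewer cells of a type and less RNA per cell cannot be told apart.

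The 9 arrays had similar overall signal, with medians between 6.85 and 7.05, and the correlation between any pair of arrays lay between 0.907 and 0.933. The number of arrays limits the precision, and p-values reflect the spread between pools. The brightest probe set of *Rptor*, the targeted gene, averaged 8.75 ± 0.32 in KO and 9.47 ± 0.21 in WT islets (SD, n = 4 and 5), a difference of -0.72 ± 0.17 (limma, adjusted p = 0.0410). Its dimmer probe sets averaged 5.17 in KO and 5.58 in WT islets, and 4.50 in KO and 3.85 in WT islets. The position of the *Rptor* probe sets against the deleted exons is not given in the sources used here, so they check the labels only in part. Markers of other cells moved with genotype. The mean over 8 beta cell markers was 13.23 to 13.42 in KO and 13.84 to 14.02 in WT arrays, and 5 of the 8 fell. The mean over 18 stromal markers was 9.55 to 10.09 in KO and 8.28 to 9.23 in WT arrays (difference 1.12, exact permutation test over 126 splits, p = 0.0159, adjusted over 11 cell types 0.0291), and 10 of the 18 rose. All 18 listed stromal markers and 8 of 10 listed beta cell markers passed the filter on dim genes. Marker means of endothelial (0.40, 16 of 16 markers measured), Schwann and glial (0.77, 5 of 8), ductal (0.76, 4 of 8) and delta cells (0.45, 3 of 4) were also higher in KO arrays without overlap between the groups. Few of these markers were called singly: 0 endothelial, 1 Schwann and glial, 0 ductal and 1 delta cell marker rose, and 0 fell. The delta cell marker *Sst*, named outside the rule given below, differed by -0.04 ± 0.09. The part of these shifts in the results that follow was not tested, except that each called member is also given with the stromal mean as a covariate.

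Of the 52 tested members, 9 were called (17.3%), against 860 of 13644 genes or 6.30% in all. The 6 rises compare with 3.67% of all genes called higher, and the 3 falls with 2.63% called lower. With each array centred on its median, the 501 rises and 359 falls over all genes became 214 and 260, and the members called became 3 rises and 0 falls. KO and WT values did not overlap in 12 of the 52 members (23.1%), against 12.5% of all genes. The median difference over the members was 0.09 against 0.04 over all genes, and 32 of 52 differences were positive (61.5%, against 56.2% of all genes).

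**Figure D1:**
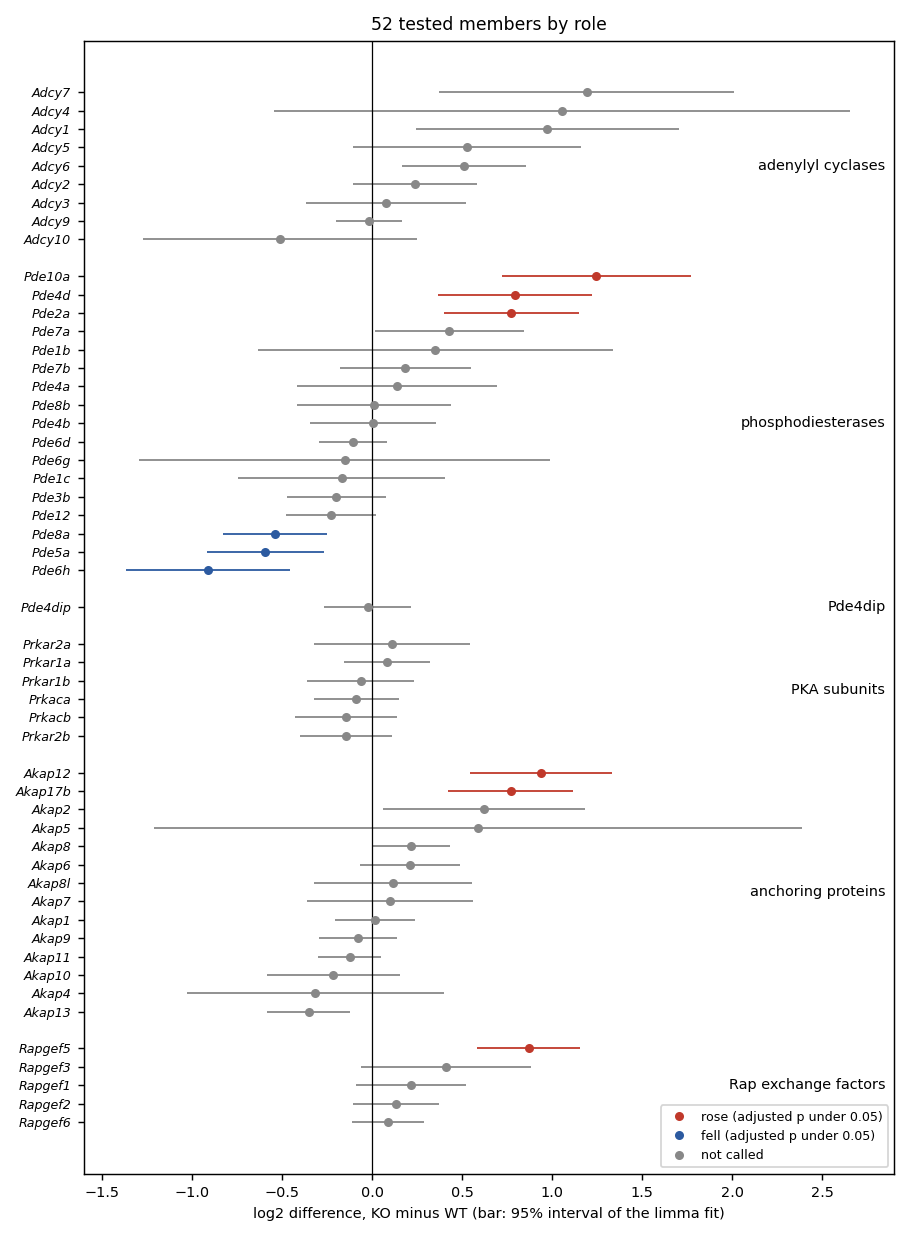
Log2 difference KO minus WT (horizontal axis) of each of the 52 tested members, grouped by role, with the 95% interval of the limma fit as a bar; red marks the 6 members that rose, blue the 3 that fell and grey those not called. The called members are 6 phosphodiesterases, 2 anchoring proteins and 1 Rap exchange factor, and the 6 PKA subunits lie between -0.15 and 0.11.

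The phosphodiesterases held most of the limma calls, and these went both ways. Of 17 tested, *Pde10a*, *Pde2a* and *Pde4d* rose and *Pde8a*, *Pde5a* and *Pde6h* fell, so the median over the class was 0.01. The calls in both directions depended on limma. With the test that the methods name, only *Pde10a* kept its call, and *Pde2a*, *Pde4d*, *Pde8a*, *Pde5a* and *Pde6h* lost theirs, so no fall remained. By substrate, the limma calls were spread as follows. Among 5 tested genes of dual specificity, which cleave both cAMP and cGMP, 2 rose. Among 7 cAMP-specific genes 1 rose and 1 fell, and among 3 cGMP-specific genes and PDE6 subunits 2 fell.

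*Pde10a*, a dual-specificity enzyme best known from the striatum, had signals of 10.73, 10.11, 10.41 and 10.38 in KO arrays, against 8.66, 9.61, 9.08, 8.84 and 9.63 in WT arrays. Every KO array was above every WT array, and the spread was wider in WT. The difference was 1.25 ± 0.23, or 2.37-fold (limma, adjusted p = 0.0172). *Pde2a*, a dual-specificity enzyme that cGMP activates, had 10.01, 10.23, 10.00 and 10.48 in KO arrays, against 9.27, 9.11, 9.78, 9.27 and 9.62 in WT arrays. The groups did not overlap, although the highest WT array came close to the lowest KO arrays. The difference was 0.77 ± 0.17, or 1.71-fold (limma, adjusted p = 0.0303). *Pde4d*, a cAMP-specific enzyme of the rolipram-sensitive family, had 9.49, 9.24, 9.72 and 9.63 in KO arrays, against 8.27, 8.59, 8.62, 9.09 and 9.08 in WT arrays. Here too the groups were apart, by a narrow gap between KO replicate 2 and WT replicates 4 and 5. The difference was 0.79 ± 0.19, or 1.73-fold (limma, adjusted p = 0.0431).

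*Pde8a*, a cAMP-specific enzyme of high affinity, had 11.12, 11.09, 11.05 and 11.40 in KO arrays, against 11.50, 11.75, 11.80, 11.52 and 11.97 in WT arrays. KO replicate 4 lay just under the lowest WT array. The difference was -0.54 ± 0.13, which is 1.45-fold lower in KO islets (limma, adjusted p = 0.0411). *Pde5a*, the cGMP-specific enzyme that sildenafil inhibits, had 11.99, 12.05, 12.33 and 12.43 in KO arrays, against 12.87, 12.54, 12.90, 12.59 and 13.06 in WT arrays. All KO arrays were below all WT arrays. The difference was -0.59 ± 0.14, which is 1.51-fold lower in KO islets (limma, adjusted p = 0.0453). *Pde6h* encodes the inhibitory subunit of the cone photoreceptor enzyme. It had 5.99, 5.30, 5.17 and 5.63 in KO arrays, against 6.37, 6.03, 6.74, 6.35 and 6.68 in WT arrays, a difference of -0.91 ± 0.20 (limma, adjusted p = 0.0339). These signals were near the level of 5.51 under which genes were left out, and the gene's other probe set differed by 0.35 ± 0.28, in the opposite direction.

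**Figure D2:**
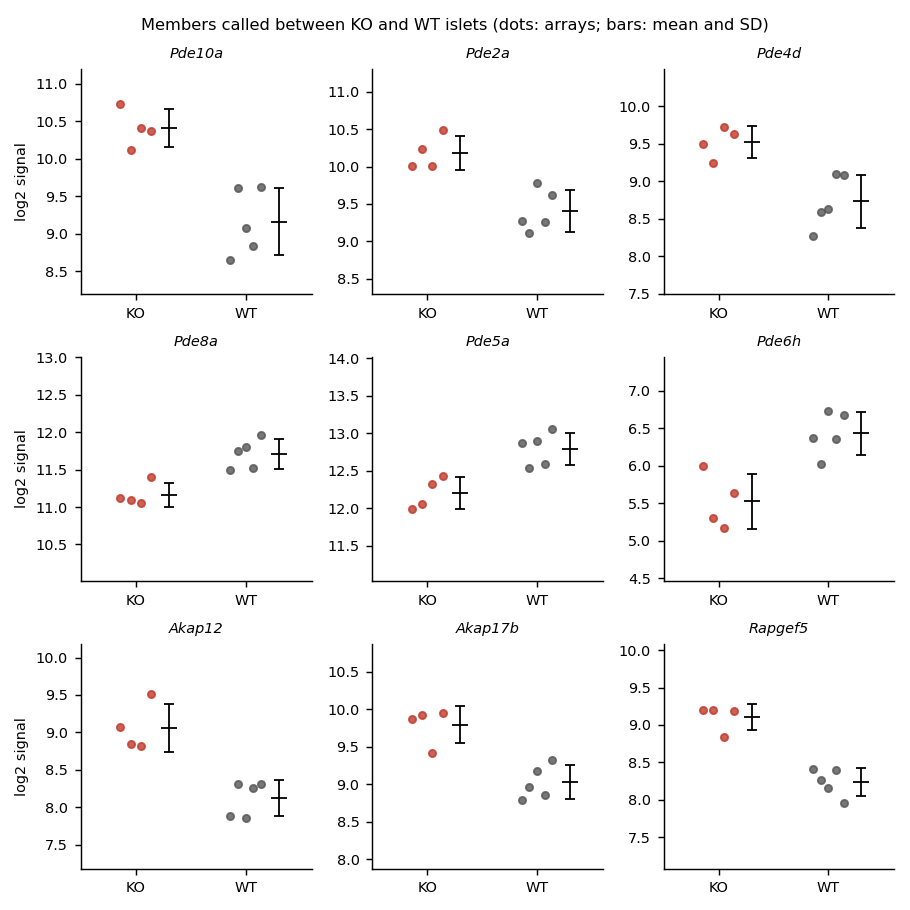
Log2 signal of each array (dots) with the mean and SD beside it for the 9 members called, KO left of WT in each panel; the vertical axis is the log2 signal and its range differs between panels. In all 9 panels the 4 KO arrays and the 5 WT arrays do not overlap, and the narrowest gaps are those of Pde6h, Pde8a, Akap17b and Pde5a.

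The remaining 11 tested phosphodiesterases were not called. *Pde3b*, the cGMP-inhibited enzyme regarded as a main cAMP phosphodiesterase of beta cells, had 12.56, 12.25, 12.24 and 12.63 in KO arrays, against 12.51, 12.53, 12.77, 12.51 and 12.79 in WT arrays. The groups overlapped, and the difference was -0.20 ± 0.12 (limma, adjusted p = 0.384; 95% interval -0.47 to 0.08). *Pde7a*, a cAMP-specific enzyme, differed by 0.43 ± 0.18 (limma, adjusted p = 0.214), and all 7 of its probe sets were higher in KO islets, 1 of them with an unadjusted p under 0.05. *Pde4b*, a close relative of *Pde4d*, differed by 0.01 ± 0.16 (95% interval -0.34 to 0.36). *Pde1c*, a calcium- and calmodulin-activated enzyme of islets, differed by -0.17 ± 0.26 in its brightest probe set, whereas dimmer probe sets differed by 0.41 ± 0.14 and 1.75 ± 0.43, both with an unadjusted p under 0.05. Its probe sets thus do not give 1 direction. *Pde7b* and *Pde1b*, of the same families as *Pde7a* and *Pde1c*, differed by 0.18 ± 0.16 and 0.35 ± 0.44. The last 3, *Pde4a*, *Pde8b* and *Pde6g*, differed by 0.14, 0.01 and -0.15. Genes whose symbol starts with Pde but whose product does other work were not called either: *Pde6d*, a chaperone of prenylated proteins, differed by -0.11 ± 0.08, *Pde12*, a mitochondrial RNA enzyme, by -0.23 ± 0.11, and *Pde4dip*, the centrosomal and Golgi scaffold myomegalin, by -0.02 ± 0.11.

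Promoter sequence is shown for the 3 phosphodiesterases that fell and, for contrast, for *Prkar1a*. Of the 51 members with promoter sequence here, *Prkar1a* is the 1 with a complete cAMP response element (CRE, TGACGTCA). CREB, the transcription factor that PKA phosphorylates, binds this element. The windows run from 250 bases before to 50 bases after the transcription start, were taken from RefSeq on GRCm38.p6 and are written 5′ to 3′ on the gene's strand. Capitals mark the complete CRE and its core TGACG, or CGTCA where the core lies on the opposite strand. The *Pde8a* window is chr7:81213015-81213314 (plus strand), the *Pde5a* window chr3:122728908-122729207 (plus strand), the *Pde6h* window chr6:136954273-136954572 (plus strand) and the *Prkar1a* window chr11:109650699-109650998 (plus strand).
Pde8a: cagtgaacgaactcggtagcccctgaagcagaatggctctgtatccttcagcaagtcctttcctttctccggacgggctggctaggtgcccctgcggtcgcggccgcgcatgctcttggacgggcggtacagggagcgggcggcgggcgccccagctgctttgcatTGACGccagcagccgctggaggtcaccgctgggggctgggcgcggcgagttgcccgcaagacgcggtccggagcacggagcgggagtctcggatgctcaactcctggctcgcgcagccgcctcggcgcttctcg
Pde5a: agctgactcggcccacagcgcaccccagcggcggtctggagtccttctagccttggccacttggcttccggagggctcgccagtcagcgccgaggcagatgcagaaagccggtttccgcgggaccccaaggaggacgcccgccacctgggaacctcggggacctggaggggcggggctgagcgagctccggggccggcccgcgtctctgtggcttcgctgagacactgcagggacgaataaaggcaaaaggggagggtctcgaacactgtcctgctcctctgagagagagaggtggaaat
Pde6h: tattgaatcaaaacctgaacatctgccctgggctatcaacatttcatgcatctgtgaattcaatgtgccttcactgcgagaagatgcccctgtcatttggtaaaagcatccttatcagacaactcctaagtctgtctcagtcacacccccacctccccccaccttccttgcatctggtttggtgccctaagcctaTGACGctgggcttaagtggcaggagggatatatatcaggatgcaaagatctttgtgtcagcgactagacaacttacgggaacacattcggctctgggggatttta
Prkar1a: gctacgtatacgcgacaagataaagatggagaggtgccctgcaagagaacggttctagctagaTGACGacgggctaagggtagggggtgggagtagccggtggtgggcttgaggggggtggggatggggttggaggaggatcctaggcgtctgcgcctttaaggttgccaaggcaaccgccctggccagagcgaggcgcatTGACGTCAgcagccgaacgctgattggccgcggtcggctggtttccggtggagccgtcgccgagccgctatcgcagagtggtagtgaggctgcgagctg
The core began at base -84 in *Pde8a* and at -55 in *Pde6h*, and *Pde5a* had no match in this window. In *Prkar1a* the complete CRE began at -49, and a further core at -187. Over the table, 1.79% of 32851 promoters held the complete element and 20.8% the core, on either strand, where every complete element also counts as a core. Of the members, 51 had 96 promoters in the table, of which 2 held the complete element (2.08%) and 20 the core (20.8%). Among the 14 promoters of 8 called members 3 held it (21.4%), and among the 74 promoters of the 38 tested members that were not called 16 held it (21.6%). The 3 belonged to *Pde8a*, *Pde6h* and *Pde2a*, the last with the core at base 15 after 1 of its 5 starts. These shares lie close to that over all promoters.

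No adenylyl cyclase was called. Of 9 tested, 7 had positive differences with a median of 0.51, 3 had an unadjusted limma p under 0.05, and the methods' t-test also called 0. *Adcy6*, a calcium-inhibited cyclase, had 11.46, 11.44, 11.35 and 11.82 in KO arrays, against 11.10, 10.78, 10.76, 11.02 and 11.36 in WT arrays. Only the highest WT array reached into the KO range, and the difference was 0.51 ± 0.15 (limma, adjusted p = 0.0844). *Adcy7*, a cyclase that G protein beta-gamma subunits can stimulate, had 8.45, 7.91, 8.15 and 8.38 in KO arrays, against 5.73, 7.27, 7.51, 6.99 and 7.65 in WT arrays. The groups did not overlap, yet WT replicate 1 was far below the others, and the difference of 1.19 ± 0.36 did not pass (limma, adjusted p = 0.0892). *Adcy1*, a cyclase activated by calcium and calmodulin, had 8.47, 8.61, 8.69 and 8.61 in KO arrays, against 7.88, 7.08, 7.97, 6.73 and 8.46 in WT arrays. KO arrays were tightly grouped and WT arrays widely spread, with the highest WT array at the edge of the KO range, and the difference was 0.97 ± 0.32 (limma, adjusted p = 0.115).

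The other cyclases gave smaller or less certain differences. *Adcy9*, which is insensitive to forskolin, differed by -0.02 ± 0.08, and its 95% interval ran from -0.20 to 0.17. *Adcy3* differed by 0.08 ± 0.20 and *Adcy2* by 0.24 ± 0.15. *Adcy5*, the second calcium-inhibited form, differed by 0.53 ± 0.28 in its brightest probe set and by -0.97 ± 0.40 in the next, so that its probe sets ran in opposite directions. *Adcy4* differed by 1.06 ± 0.71, with WT replicate 3 at 2.83 and the other WT arrays between 6.21 and 6.44. *Adcy10*, the soluble cyclase that bicarbonate activates, differed by -0.51 ± 0.34. *Adcy8*, a second calmodulin-activated form that islets are known to use, was too dim to be tested: it had 5.90, 6.53, 5.54 and 5.21 in KO arrays, against 5.69, 2.76, 5.26, 1.39 and 6.14 in WT arrays, which overlap. In the fit that adds the stromal mean as a covariate, the difference of *Adcy7* was -0.03 ± 0.63, that of *Adcy1* 0.01 ± 0.60 and that of *Adcy6* 0.20 ± 0.31. Calls of cyclases turned on single WT arrays and on the setting. *Adcy7* passed without WT replicate 1 (0.87; limma, adjusted p = 0.0425), and *Adcy1* (1.18; adjusted p = 0.0471) and *Adcy6* (0.60; adjusted p = 0.0452) passed without WT replicate 5. With all 9 arrays, *Adcy7* (limma, adjusted p = 0.0398) and *Adcy6* (limma, adjusted p = 0.0267) also passed in a limma fit with an intensity trend, and *Adcy6* with the lower 0.5 of genes left out (limma, adjusted p = 0.0387).

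The PKA subunits showed no call in either direction. All 6 were tested, 0 had an unadjusted p under 0.05 with limma or with the methods' t-test, and the median difference was -0.07. The catalytic subunit *Prkaca* had 11.78, 11.62, 11.75 and 11.82 in KO arrays, against 11.60, 11.81, 12.07, 11.81 and 11.85 in WT arrays, and *Prkacb* differed by -0.14 ± 0.12. KO and WT arrays of *Prkaca* lay over each other, at a difference of -0.09 ± 0.10. The regulatory subunit *Prkar1a* had 13.20, 13.31, 13.34 and 13.03 in KO arrays, against 13.11, 13.28, 13.06, 13.27 and 12.96 in WT arrays (difference 0.08 ± 0.10). *Prkar1b* differed by -0.06 ± 0.13, *Prkar2a* by 0.11 ± 0.19 and *Prkar2b* by -0.15 ± 0.11. The 95% intervals of the 6 ran from -0.43 to 0.54 at their outermost bounds, so a change of up to 1.46-fold in 1 of these transcripts is not excluded by its interval.

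**Figure D3:**
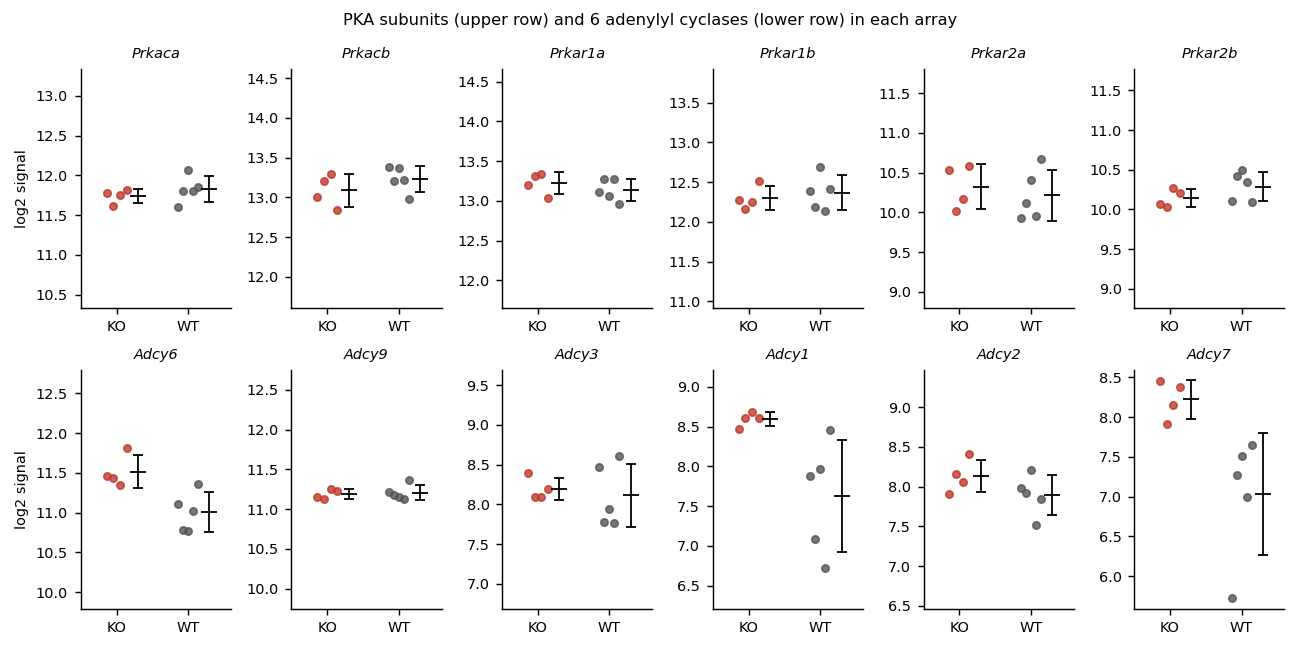
Log2 signal of each array (dots) with the mean and SD beside it for the 6 PKA subunits (upper row) and 6 of the adenylyl cyclases (lower row), KO left of WT; the vertical axis is the log2 signal and covers another range in each panel. KO and WT arrays overlap in all 6 PKA panels, and among these 6 cyclases they are apart in Adcy1 and Adcy7, which were not called.

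Among the anchoring proteins, 14 were tested, 2 rose and 0 fell, with a median difference of 0.11. *Akap12* (gravin), a scaffold for PKA and protein kinase C, had 9.08, 8.85, 8.82 and 9.51 in KO arrays, against 7.89, 8.32, 7.85, 8.26 and 8.32 in WT arrays. All KO arrays were above all WT arrays, and the difference was 0.94 ± 0.17, or 1.91-fold (limma, adjusted p = 0.0175). *Akap17b*, an X-linked member of the family, had 9.88, 9.92, 9.42 and 9.96 in KO arrays, against 8.79, 8.96, 9.18, 8.86 and 9.33 in WT arrays. KO replicate 3 lay near the WT range, and the difference was 0.77 ± 0.15, or 1.70-fold (limma, adjusted p = 0.0241). *Akap13*, a PKA anchoring protein, was singled out after its values were seen: it had 11.51, 11.63, 11.37 and 11.68 in KO arrays, against 11.81, 11.92, 12.02, 11.73 and 12.02 in WT arrays. The groups did not overlap, but the difference of -0.35 ± 0.10 did not pass (limma, adjusted p = 0.0786), although it did with an intensity trend (limma, adjusted p = 0.0266) and with the lower 0.5 of genes left out (limma, adjusted p = 0.0420). *Akap2* differed by 0.62 ± 0.25 (limma, adjusted p = 0.184). *Akap11*, an anchor that binds glycogen synthase kinase as well as PKA, differed by -0.13 ± 0.08. The other 9 tested anchoring proteins overlapped between the groups, with differences between -0.32 (*Akap4*) and 0.59 (*Akap5*).

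All 5 Rap exchange factors were tested, all 5 differences were positive with a median of 0.21, and 1 was called. *Rapgef5*, an activator of Rap proteins, had 9.20, 9.20, 8.84 and 9.19 in KO arrays, against 8.41, 8.26, 8.15, 8.40 and 7.96 in WT arrays. The groups were clearly apart, and the difference was 0.87 ± 0.13, or 1.83-fold (limma, adjusted p = 0.00664), which is the lowest adjusted p among the 52 members. *Rapgef3* encodes EPAC1, a direct cAMP sensor, and had 7.49, 7.47, 7.06 and 7.87 in KO arrays, against 7.31, 6.49, 7.29, 7.13 and 7.09 in WT arrays. These overlapped, with a difference of 0.41 ± 0.21 (limma, adjusted p = 0.291). Dimmer probe sets of *Rapgef3* differed by 1.51 ± 0.44 and 1.13 ± 0.33 in the same direction, both with an unadjusted p under 0.05. *Rapgef2* differed by 0.13 ± 0.11, and *Rapgef1* and *Rapgef6* had differences of 0.21 and 0.09. *Rapgef4*, which encodes EPAC2, the EPAC form of beta cells, was not analysed here.

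The 10 members left untested had mean signals between 3.53 and 5.42 over the 9 arrays. Their lowest single value was 0.83, for *Pde6b* in WT replicate 1. These members were 7 phosphodiesterases, 2 anchoring proteins and *Adcy8*. KO and WT arrays overlapped in each of the 10. *Pde3a*, the relative of *Pde3b* best known from heart and platelets, is named here outside the rule given below. It had 5.69, 5.89, 5.73 and 6.30 in KO arrays, against 5.49, 4.72, 5.77, 5.04 and 3.53 in WT arrays. Only WT replicate 3 reached the KO range.

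The other probe sets of the called members can be set beside the brightest. There were 14 of them, 11 bright enough to be tested, and 10 of the 11 had the sign of the brightest probe set. Of these 10, 6 had an unadjusted limma p under 0.05, and the 1 with the opposite sign belonged to *Pde6h*. *Pde5a* had -0.47 ± 0.11 and -0.37 ± 0.25 beside -0.59. *Rapgef5* had 0.79 ± 0.27, *Pde4d* 0.65 ± 0.23 and *Akap17b* 1.26 ± 0.47. *Pde2a* had 0.21 ± 0.18 and 0.90 ± 0.35, *Pde10a* 0.66 ± 0.38 and 1.72 ± 0.74, and *Pde8a* -0.28 ± 0.21. *Akap12* had 1 probe set.

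**Figure D4:**
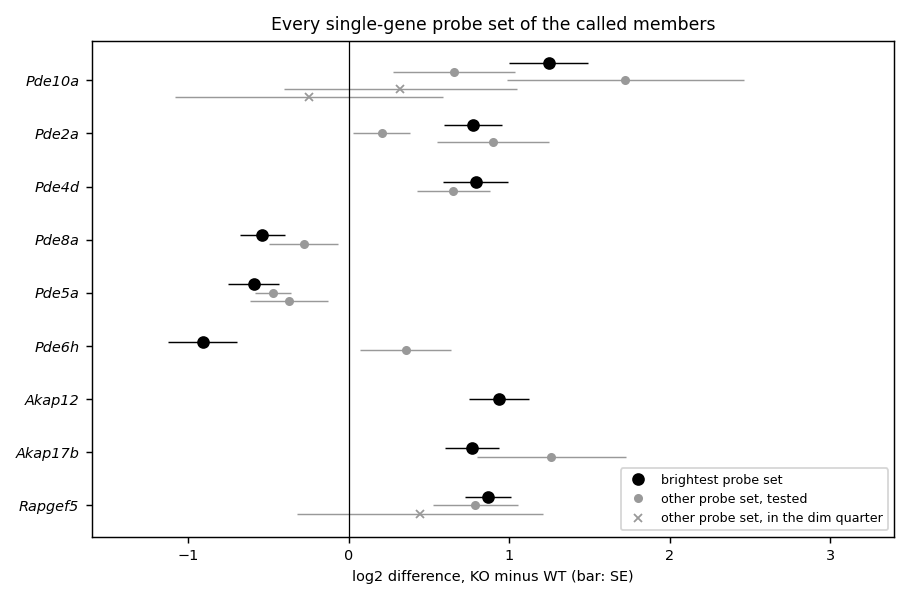
Log2 difference KO minus WT with its SE (horizontal axis) for every single-gene probe set of the 9 called members; black points are the brightest probe set of a gene, grey points the others that were tested and crosses those left out as too dim. Among the tested probe sets only the second one of Pde6h, at 0.35, lies on the other side of 0 from the brightest.

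How the 9 calls held when 1 array was left out differed by gene. *Rapgef5* was called in all 9 fits that left out 1 array (0.80 to 0.96). It lost its call with the mean of its probe sets (0.70; limma, adjusted p = 0.276) and with the second brightest (0.79; limma, adjusted p = 0.194). So did *Pde10a*, with the mean (0.74; limma, adjusted p = 0.332) and with the second brightest (0.66; limma, adjusted p = 0.458). *Akap12* lost its call without KO replicate 1 (0.93; limma, adjusted p = 0.0557), and *Pde10a* without KO replicate 1 (1.14, adjusted p = 0.0580) or KO replicate 3 (1.25, adjusted p = 0.0505). The other 6 held in 1 to 3 of the 9 fits. *Akap17b* was called without KO replicate 3, WT replicate 3 or WT replicate 5, *Pde2a* without WT replicate 3 or 5, *Pde4d* without WT replicate 4 or 5, *Pde8a* without KO replicate 4 or WT replicate 4, *Pde5a* without WT replicate 2, and *Pde6h* without KO replicate 1 or WT replicate 2. Without any other array each of these 6 lost its call, at adjusted limma p-values up to 0.0748 for *Akap17b*, 0.0767 for *Pde2a*, 0.112 for *Pde4d*, 0.111 for *Pde8a*, 0.126 for *Pde5a* and 0.0895 for *Pde6h*. Their differences kept their sign in all of these fits, for example 0.71 to 0.89 for *Akap17b* and -0.67 to -0.52 for *Pde5a*. The count of members called was 4, 5, 5, 5 and 8 without WT replicates 1 to 5, and 2, 3, 3 and 4 without KO replicates 1 to 4.

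In the fit with the stromal mean as a covariate, 0 of the 52 members and 5 of all genes were called, and the SE was 2.04 times as large in the median. Under it, 4 of the 9 still had an unadjusted limma p under 0.05. All 9 differences kept their sign. *Pde2a* was at 0.16 ± 0.27 and *Akap17b* at 0.15 ± 0.23, against 0.77 each without the covariate. *Pde4d* was at 0.41 ± 0.38, *Pde10a* at 0.84 ± 0.48 and *Akap12* at 0.79 ± 0.38. *Rapgef5* was at 1.07 ± 0.26, *Pde5a* at -0.88 ± 0.29, *Pde8a* at -0.91 ± 0.23 and *Pde6h* at -1.81 ± 0.26, each farther from 0 than without the covariate. Stromal signal and genotype are closely tied over these 9 arrays, since their marker means do not overlap.

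Around the members, the rest of the pathway was described by 7 lists from textbook knowledge. Listed genes without a probe set of their own, or too dim, were not tested. Beside the counts that follow stand the shares over all genes tested, 3.67% called higher and 2.63% called lower, with a median difference of 0.04. The alpha subunits of stimulatory and inhibitory G proteins had 0 of 7 tested genes called and 0 with an unadjusted p under 0.05. Their median difference was 0.00, and *Gnai2*, an inhibitory subunit, had the lowest p (-0.38 ± 0.18; limma, adjusted p = 0.272). Of 6 tested PKA inhibitors and other cAMP-binding proteins 0 were called and 1 had an unadjusted p under 0.05, the inhibitor *Pkig* (0.27 ± 0.11). Of 11 CREB family members, coactivators and their kinases 0 were called and 1 had an unadjusted p under 0.05, the coactivator *Crtc3* (-0.35 ± 0.13). The methods' t-test called 0 in each of these 3 lists.

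Of 27 listed receptors that raise or lower cAMP in islets, 13 were tested, and 3 of these rose and 1 fell. *Ptger3*, the inhibitory prostaglandin E receptor, had 9.81, 9.97, 9.34 and 9.85 in KO arrays, against 6.06, 6.55, 7.04, 7.38 and 7.07 in WT arrays. The groups were far apart, with a difference of 2.92 ± 0.26 (limma, adjusted p = 0.000737). The stimulatory prostaglandin E receptor *Ptger4* rose by 0.82 ± 0.14 and the glucagon receptor *Gcgr* by 0.78 ± 0.11 (limma, adjusted p = 0.0131 and 0.00654). *Gipr*, the GIP receptor, named after its values were seen as the 1 receptor that fell, had 7.17, 7.43, 7.41 and 6.86 in KO arrays, against 8.87, 9.09, 7.73, 8.73 and 7.91 in WT arrays. KO arrays were all lower, and the difference was -1.25 ± 0.30 (limma, adjusted p = 0.0433). How the call of *Gipr* held under other settings was not examined. *Glp1r*, the GLP-1 receptor, likewise named after its values were seen, differed by -0.84 ± 0.63 and overlapped between the groups (limma, adjusted p = 0.497). Under the stromal covariate *Ptger3* was at 2.04 ± 0.46, *Ptger4* at 0.51 ± 0.29 and *Gcgr* at 0.53 ± 0.22, and none of them was called. With the mean of all probe sets of a gene, *Ptger3* (2.12; limma, adjusted p = 0.144) and *Ptger4* (0.61; limma, adjusted p = 0.662) also lost their calls.

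Of 19 CREB target genes, 2 rose and 0 fell, with a median difference of -0.04. *Vgf*, a secretory granule protein, rose by 1.12 ± 0.16 and *Ppargc1a*, a coactivator of mitochondrial genes, by 1.40 ± 0.26 (limma, adjusted p = 0.00580 and 0.0162). The call of *Ppargc1a* was lost without KO replicate 1, 2 or 3, at differences of 1.30 to 1.36. For its protein, PGC1α, the paper reports the opposite direction, a strong decrease in mutant islets, whereas the values here are RNA. Under the stromal covariate *Vgf* was at 0.92 ± 0.34 and *Ppargc1a* at 2.19 ± 0.46, neither of them called. Other CREB targets of the list, among them *Fos*, *Nr4a1* and *Pcsk1*, were not called. Of the 19, *Sik1* and *Crem* also stand in the CREB family list. Of 9 Rap and exocytosis partners of EPAC 1 fell and 0 rose: *Pclo* (piccolo), an active zone scaffold that binds EPAC2, had 11.61, 11.68, 11.57 and 11.61 in KO arrays, against 12.49, 12.42, 12.53, 12.37 and 12.40 in WT arrays. The arrays of each group were tightly grouped, and the difference was -0.83 ± 0.07 (limma, adjusted p = 0.000731). It was -0.84 ± 0.15 under the stromal covariate, not called, and its second brightest probe set also missed the threshold (-0.56; limma, adjusted p = 0.0559). The paper, by RT-PCR, counts *Pclo* among the insulin release genes that were unchanged, and the cause of this disagreement was not tested.

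The cGMP side shares the dual-specificity and cGMP-specific phosphodiesterases. Of its 15 listed genes 8 were tested, with 4 rises and 0 falls, against 3.67% of all genes called higher and 2.63% called lower. The median was 0.60, against 0.04 over all genes. *Gucy1b1* and *Gucy1a1*, the beta and alpha subunits of soluble guanylyl cyclase, rose by 0.85 ± 0.09 and 1.07 ± 0.18 (limma, adjusted p = 0.00121 and 0.00992). *Gucy2c*, the membrane guanylyl cyclase best known from the intestine, rose by 0.95 ± 0.15 (limma, adjusted p = 0.00909). *Gucy1a2*, a further alpha subunit named after its values were seen, rose by 1.16 ± 0.26 (limma, adjusted p = 0.0375). Its call was not examined under other settings. Under the stromal covariate, *Gucy1b1* was at 1.03 ± 0.17, *Gucy2c* at 0.97 ± 0.33 and *Gucy1a1* at 0.35 ± 0.25, and none was called. With the second brightest probe set *Gucy1b1* (0.54) and *Gucy1a1* (0.57) lost their calls, and *Gucy1b1* did so with the mean of its probe sets (0.69). The cGMP-dependent kinase *Prkg1* was not called.

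**Figure D5:**
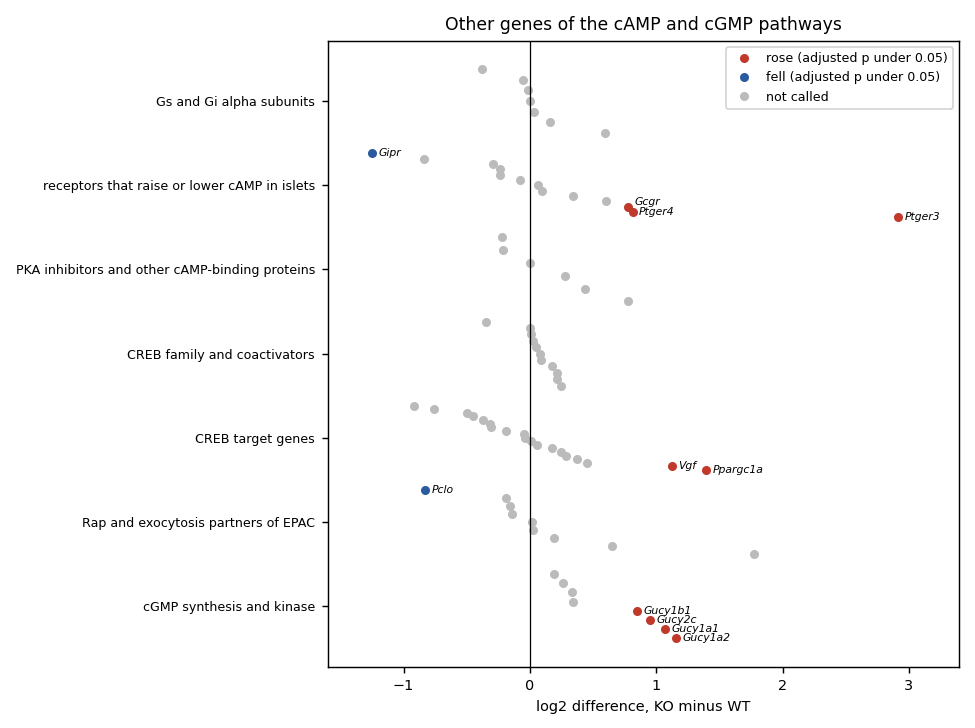
Log2 difference KO minus WT (horizontal axis) of every tested gene in 7 lists of the wider cAMP and cGMP pathways, 1 list per row; red points rose, blue points fell and grey points were not called, and height within a row only separates points. Ptger3 at 2.92 lies farthest from 0, and the cGMP list holds 4 of the 9 rises shown.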

How the data were processed

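Islet RNA from 4 KO and 5 WT pools, each of 5 animals, was hybridised to Affymetrix arrays after labelling of 3′ in vitro transcripts. The authors deposited log2 signals, 1 per probe set and array, from an analysis for which Genespring is named. How they summarised and scaled the probes is not given in the sources used here. Trimmed means of the linear signals were 497.1 to 497.7, so all arrays had been brought to 1 level, and 43 to 107 values per array sat at a floor.

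Of 45037 probe sets, 34945 were paired with 1 gene by the platform annotation, 932 with several and 9160 with none here, and only the first kind was used to name genes. A gene was represented by its brightest probe set (mean of all 9 arrays), which hides differences between transcript ends, and genes whose mean was at or under 5.51 (the lowest 0.25) were left out. Of the 62 members, 61 matched a RefSeq gene of GRCm38.p6 by identifier, and 0 symbols differed. *Rapgef4* was not analysed here. The 10 members left out as dim were *Adcy8*, *Akap3*, *Akap14*, *Pde1a*, *Pde3a*, *Pde6a*, *Pde6b*, *Pde6c*, *Pde9a* and *Pde11a*.

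KO and WT were compared on the deposited values by a two-sided limma fit without covariates on all 9 arrays (limma 3.58.1, R 4.3.3), with p-values adjusted by the Benjamini-Hochberg method over 13644 genes and a threshold of 0.05. The script was tested on simulated data. Marker means of 11 cell types were compared by exact permutation tests, two-sided. Alternatives were other normalizations, filters and probe set rules, an intensity trend, array weights, the t-test that the methods name, the stromal mean as a covariate, the replicate number as a block and each array left out. Role groups and lists are described by counts and medians, with no test of the list. The members, the 7 pathway lists and the 11 marker lists were chosen with earlier results of these data known.

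Genes were named by rule: members called; members with an unadjusted p under 0.05 and at least 1.5-fold; the lowest p and highest mean in each role group or phosphodiesterase family; every PKA subunit, adenylyl cyclase and EPAC gene; up to 3 called genes per pathway list, or the one with the lowest p; and *Rptor*. Genes outside it are said to be so, give the ends of a range or fill out a group or list. The last kind includes *Pde4a*, *Pde8b*, *Pde6g*, *Rapgef1*, *Rapgef6*, *Prkg1*, *Fos*, *Nr4a1* and *Pcsk1*.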

Additional observations from a re-analysis of the deposited data

Results flagged for a closer look

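In 10 of 124 groups of values examined, the highest or lowest array stood apart from the rest of its group by more than Dixon's 95% limit, which chance alone exceeds in about 1 of 20 groups. Among the called members, KO replicate 3 was low for *Akap17b* (9.42, the other KO arrays 9.88 to 9.96) and for *Rapgef5* (8.84, the others 9.19 to 9.20), in both cases toward the WT values and still above them. The same array was low for *Pde1b* (5.97, the others 6.97 to 7.02). Of the cyclases, *Adcy4* had 2.83 in WT replicate 3 (the others 6.21 to 6.44), and *Adcy5* had 7.55 in that array (the others 6.70 to 6.86). *Rapgef3* was low in WT replicate 2 (6.49, the others 7.09 to 7.31), and *Pde4dip* was low in WT replicate 5 (11.65, the others 11.90 to 11.96). Outside the members, *Gucy1a1* was high in KO replicate 4 (9.62, the others 9.36 to 9.40). The lymphocyte marker mean was high in the same array (8.46, the other KO arrays 6.67 to 6.76), and the endothelial marker mean was low in WT replicate 1 (8.82, the other WT arrays 9.22 to 9.34).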

How the results depend on the processing

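The 9 calls among members and the 860 among all genes became 3 and 474 with each array centred on its median, 3 and 452 with no filter on dim genes, 3 and 317 with the mean of all probe sets of a gene, and 1 and 216 with the second brightest probe set. In the last setting genes with 1 probe set kept it, and the 1 member called was *Akap12*, which has only 1. Every called member with a second probe set lost its call there. With the methods' t-test 4 members and 717 genes passed, and with the stromal mean as a covariate 0 members and 5 genes. The 4 were *Akap12*, *Akap17b*, *Pde10a* and *Rapgef5*, all of them rises, whereas the 717 genes held 362 rises and 355 falls. With 1 array left out, 2 to 8 members and 375 to 802 genes were called. Quantile normalization gave 7 members and 762 genes, the lower 0.5 of genes left out 10 and 1080, an intensity trend 11 and 1260, and array quality weights 9 and 1063. Members called beyond the 9 were *Adcy7* without WT replicate 1, *Adcy1* and *Adcy6* without WT replicate 5, *Adcy6* and *Akap13* with the lower 0.5 left out, and *Adcy6*, *Adcy7* and *Akap13* with the trend. *Pde6h* lost its call with quantile normalization and with the trend and was not tested with the lower 0.5 left out, and *Pde4d* lost its call with quantile normalization. *Pde6h* reversed to 0.35 with its second brightest probe set. The same-numbered KO and WT arrays do not share animals, and their deviations from the group means correlated at -0.04, 0.09, 0.12 and -0.03. KO replicates 2 and 3 correlated best with the WT array of their own number, KO replicates 1 and 4 with WT replicates 4 and 5. Whether the numbers mark a shared batch was not settled by these values. With the number as a replicate block, in which WT replicate 5 carries no information, 0 members and 61 genes were called, and *Rptor* was at -0.76. The *Rptor* difference of -0.72 also lost its call with no filter (-0.72), with the mean of its probe sets (-0.16), with the second brightest (-0.41), with the t-test (-0.72) and with the stromal covariate (-0.43), and with 1 array left out it was -0.87 to -0.63 and was called only without WT replicate 4 or KO replicate 3. The marker means kept their sign with 1 array left out for stromal (1.01 to 1.25), endothelial (0.31 to 0.45), Schwann and glial (0.63 to 0.85), ductal (0.64 to 0.85), delta (0.39 to 0.53) and beta cells (-0.65 to -0.59). No exact permutation test passed once a WT array was gone (smallest p 0.0286, adjusted 0.0524). That p is the smallest this test can give with 4 arrays in each group, so the loss of these calls there is set by the number of arrays. Without KO replicate 1 or 4, the stromal and ductal means also missed the threshold (exact permutation test, p = 0.0357, adjusted 0.0655). Marker means of acinar cells (-0.72 to 0.61) and lymphocytes (-0.26 to 0.34) changed sign. Delta cell markers differed by 0.41 with median centring and no longer passed. The cause of the other losses was not tested, beyond the smaller number of arrays or probe sets that some settings use.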

Other observations

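The spread between arrays differed widely over the 52 tested members. The within-group SD ran from 0.03 to 0.70 in KO and from 0.06 to 1.75 in WT islets. In 9 members it exceeded 0.5 in either group, and none of these 9 was called: 5 adenylyl cyclases (*Adcy1*, *Adcy4*, *Adcy5*, *Adcy7* and *Adcy10*), 2 anchoring proteins (*Akap4* and *Akap5*) and 2 phosphodiesterases (*Pde1b* and *Pde6g*). The SD of *Adcy1* was 0.09 in KO and 0.70 in WT islets, that of *Adcy7* 0.24 in KO and 0.77 in WT islets. Over the 9 tested cyclases the median SD was 0.21 in KO and 0.40 in WT islets, and over the 6 PKA subunits it was 0.15 in KO and 0.17 in WT islets. Differences in spread were not tested.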
